A study of Mus musculus with 7 samples.

Results

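The list of peaks that were higher after anti-IFNAR1 held 491 peaks assigned to noncoding transcripts, out of 6395 in all (7.68%). They were chosen by the biotype column of the authors' deposited table: every row counted whose gene biotype was given and was not protein_coding alone. No measured value entered that choice. The 491 peaks fell on 467 genes, of which 446 had 1 peak, 18 had 2 and 3 had 3. A further 5202 listed peaks were assigned to protein-coding genes and 702 were intergenic. The label held only in part: 3 of the 491 rows carried a coding biotype beside a noncoding one, and 35 more belonged to pseudogenes or a T cell receptor gene segment, which the rule also takes.

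The accessible chromatin of T follicular helper (Tfh) cells was profiled by ATAC-seq, in which a transposase inserts adapters into open DNA. The cells, CD4+CD44+GITR-PSGL-1loCXCR5hiPD-1hi, were splenic and came from B6/Sle1.Yaa mice aged 5 months, a strain that develops lupus-like disease and that both groups share. One group of 4 samples came from mice given an antibody that the labels call anti-IFNA1 and the series title IFNAR1, a chain of the type I interferon receptor. The control group of 3 samples came from mice given anti-rat IgG, and dosing lasted 4 weeks in both. The labels do not say whether a sample was 1 mouse or a pool, and no untreated or wild-type mice stood among the samples used here.

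Many noncoding RNAs start at the promoter of a protein-coding gene and run away from it on the other strand. Such a divergent pair has 1 stretch of open chromatin between or across both start sites, so a peak there can be named after either transcript. Other noncoding genes, such as those of spliceosomal snRNAs, have compact promoters of their own, and snoRNAs and many miRNAs are cut from the introns of longer host transcripts.

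The promoters shown first are those at which the coding partner matters for reading the list. Each is the 250 bases before the coding start in RefSeq (GRCm38.p6, the build called mm10), 5′ to 3′ on the coding strand, in lower case with the searched motifs in capitals. Il21 (chr3:37232637-37232886, minus strand) is shown because the peak in it carries the name of a noncoding locus, Gm43822, although it covers the promoter of the cytokine gene in the series title. H4c8 (chr13:23530794-23531043, plus strand), Mex3b (chr7:82867083-82867332, plus strand) and Fkbp4 (chr6:128438657-128438906, minus strand) are the divergent promoters with the smallest q. Zbtb37 (chr1:161034850-161035099, minus strand) faces Gas5, a well-known snoRNA host gene. In Il21 the capitals mark a CCAAT box, in H4c8 a CRE (TGACGTCA) and an SP and KLF box (GGGCGG or its complement), in Mex3b and Fkbp4 SP and KLF boxes and a CCAAT box, and in Zbtb37 SP and KLF boxes.
Il21: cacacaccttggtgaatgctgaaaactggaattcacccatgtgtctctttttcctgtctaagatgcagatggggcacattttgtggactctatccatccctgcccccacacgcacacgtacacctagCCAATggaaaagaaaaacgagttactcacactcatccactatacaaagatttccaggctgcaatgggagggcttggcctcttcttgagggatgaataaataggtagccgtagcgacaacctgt
H4c8: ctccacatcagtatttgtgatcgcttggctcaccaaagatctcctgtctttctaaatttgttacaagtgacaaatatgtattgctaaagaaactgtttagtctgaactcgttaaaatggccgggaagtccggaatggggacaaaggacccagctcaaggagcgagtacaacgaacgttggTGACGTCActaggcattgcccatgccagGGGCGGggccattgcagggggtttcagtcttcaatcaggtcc
Mex3b: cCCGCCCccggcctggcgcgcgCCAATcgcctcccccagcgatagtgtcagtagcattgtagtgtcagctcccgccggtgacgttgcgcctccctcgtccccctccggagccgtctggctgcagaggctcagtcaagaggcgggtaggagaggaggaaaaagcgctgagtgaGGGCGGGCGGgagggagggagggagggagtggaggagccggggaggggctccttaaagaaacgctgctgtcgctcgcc
Fkbp4: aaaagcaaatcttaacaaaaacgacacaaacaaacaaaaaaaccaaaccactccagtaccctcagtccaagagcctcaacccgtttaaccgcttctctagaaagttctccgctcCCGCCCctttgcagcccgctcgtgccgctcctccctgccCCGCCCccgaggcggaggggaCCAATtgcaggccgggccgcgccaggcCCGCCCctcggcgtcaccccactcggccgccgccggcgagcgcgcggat
Zbtb37: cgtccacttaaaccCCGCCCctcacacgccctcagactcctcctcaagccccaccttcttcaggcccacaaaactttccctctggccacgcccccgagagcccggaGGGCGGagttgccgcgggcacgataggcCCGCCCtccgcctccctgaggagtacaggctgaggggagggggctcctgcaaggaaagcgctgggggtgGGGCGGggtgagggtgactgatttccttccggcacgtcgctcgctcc
The Il21 stretch held 1 of the 12 motifs searched, the CCAAT box, and no SP and KLF box, whereas the Mex3b and Fkbp4 stretches held 3 SP and KLF boxes each and the Zbtb37 stretch 4. A match is a match of letters only.

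Peak positions, folds and q-values are the authors' own, from the authors' deposited table, and fragments, backgrounds and tests were recomputed from it. That table is 1 list for the whole experiment. Each peak had a coverage at its summit on the anti-IFNAR1 side, given here in fragments, and a background on the control IgG side that the peak caller took from the site, from 1 kb or 10 kb around it or from the genome. The fold is the scaled coverage plus 1 over the background plus 1, and q is the caller's false discovery rate. Values per sample were not analysed here, so no value carries a spread between mice, and peaks higher in control mice were not analysed here. Intervals cover counting error only, and fragments copied by PCR do not count as separate molecules. Of 13 genes listed as Tfh markers, 10 had an assigned peak, Bcl6, Pdcd1, Maf and Tcf7 among them, and Cxcr5, Icos and Il21 had none. The 10 include Cd4 and Cd3e, which other T cells also express. None of 6 B cell markers and none of 6 CD8 T and NK markers had one, while 2 of 6 myeloid markers (Cd14 and Cebpa) and 1 of 4 regulatory T cell markers (Il2ra) did. Of all 21900 coding genes, 79.0% had no assigned peak, so its absence from lists of 4 or 6 markers says little about the cells. Genes equally open on both sides are not on such a list.

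Noncoding peaks resembled the rest of the list in size and strength. Their median fold was 4.63 (95% order-statistic interval 4.48 to 4.86), beside 4.74 (4.70 to 4.76) for the whole list and 4.74 for peaks of protein-coding genes. Their folds ran from 2.32 to 12.5. The median coverage was 42 anti-IFNAR1 fragments, from 11 to 512, against a median background of 1.65 control fragments, beside 41 and 1.49 over the list. Median peak length was 539 bp for the noncoding peaks and for the whole list. By q, 1 noncoding peak stood among the 10 smallest of the list, 9 among the 100 smallest and 69 among the 1000 smallest.

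Being listed is no test of these peaks, since 100% of the list was called by the authors at a q of 0.05. At a q of 0.01 or less, 393 of the 491 noncoding peaks were left (80.0%, Wilson 95% interval 76.3 to 83.3), beside 82.4% of the list. The caller takes its background as free of error and scales the anti-IFNAR1 coverage down. A one-sided exact conditional binomial test that also counts control noise was run on the listed peaks with a local background. It used unscaled fragments, so it is not simply a stricter form of the caller's test, and its p can also be smaller. The 46 noncoding peaks, of 644 in the list, whose background was the genome rate had a Poisson test of unscaled fragments without control noise. All 644 passed, so that test removed none. With the background window of the caller and those peaks included, 331 noncoding peaks (67.4%, 63.1 to 71.4) had an exact p no larger than 6.90e-05, the largest p on the list and the limit used throughout, beside 68.7% of the list. Among the 445 noncoding peaks tested with control noise, 285 passed (64.0%, 59.5 to 68.4), beside 65.2% of the list. Within the site alone, 100 did so (20.4%, 17.0 to 24.2), beside 20.9% of the list. Each of these shares lay near that of the list. A peak needs 39 fragments to pass at the site even with 0 control fragments there.

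**Figure D1:**
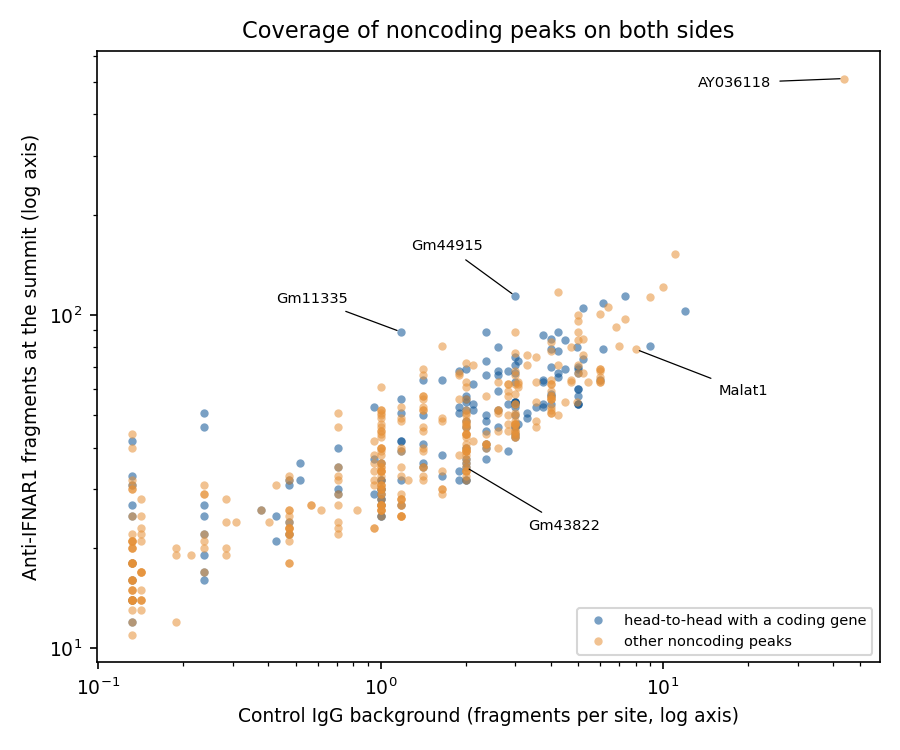
Each point is 1 of the 491 noncoding peaks, with the control IgG background in fragments per site on the x axis and the anti-IFNAR1 fragments at the summit on the y axis, both log axes. Blue points are head-to-head with a coding gene and orange points are the others. A listed peak needs more fragments over a higher background, so the selection sets the lower edge of the points. The rest of the upward trend was not tested. AY036118 stands apart at 512 fragments over 43.9, and Gm43822, at the Il21 promoter, lies on the lower edge at 35 over 2.

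By biotype, long noncoding RNAs made up 343 of the 491 peaks and small RNAs 63. The largest class was lincRNA, long intergenic noncoding RNA, with 155 peaks (31.6%) and a median fold of 4.86 (4.48 to 5.02). Antisense transcripts, which overlap a coding gene on the other strand, had 92 peaks and a median fold of 4.70. The class processed_transcript, noncoding transcripts without a closer label, had 83 peaks with a median of 4.59. TEC, loci whose transcripts await experimental checking, had 47 peaks with a median of 4.38 (3.95 to 4.74). Another 13 long noncoding peaks included 7 of the class bidirectional_promoter_lncRNA, with a median fold of 4.07. Pseudogenes and 1 T cell receptor segment had 35 peaks with a median of 4.74.

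Among small RNAs, snoRNA peaks had a median fold of 5.60 (3.70 to 7.33, 10 peaks), snRNA peaks 5.32 (3.66 to 6.82, 18 peaks) and miRNA peaks 4.25 (3.96 to 5.02, 28 peaks). The intervals of these 3 classes overlap, and differences between biotypes were not tested.

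**Figure D2:**
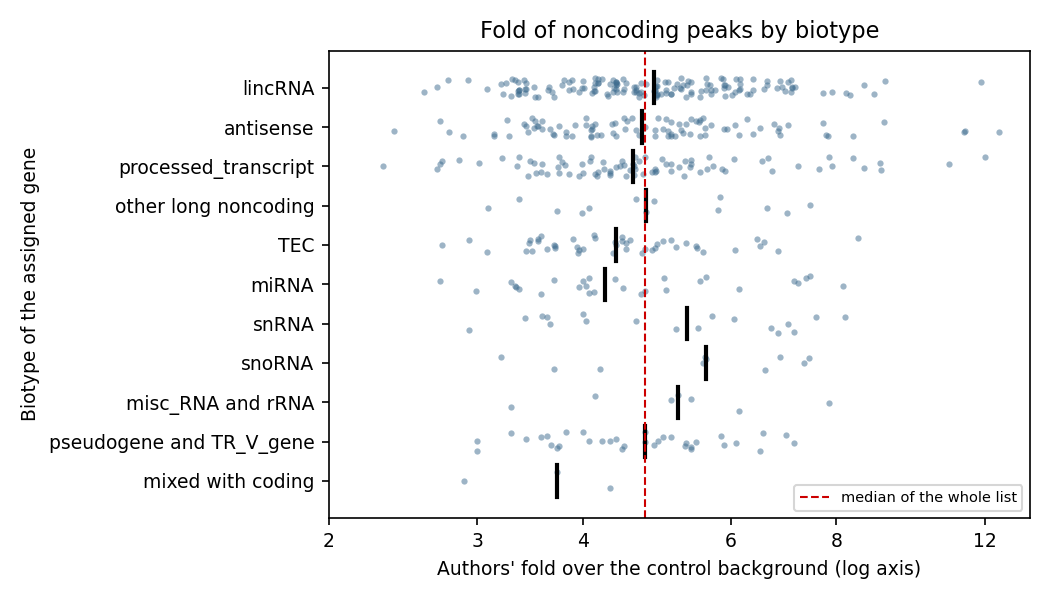
Each point is 1 noncoding peak, placed by the authors' fold over the control background (x, log axis) and by the biotype of its assigned gene (y); black bars are class medians and the red dashed line is the list median of 4.74. Class medians run from 3.73, for the 3 peaks with a mixed biotype, to 5.60 for snoRNA peaks, and every class with at least 10 peaks has points on both sides of the list median.

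Noncoding peaks lay mainly at transcription start sites (TSS). The file placed 395 of 491 there (80.4%, 76.7 to 83.7), as it did 81.4% of protein-coding peaks. Introns held 54, transcript ends 27 and exons of noncoding transcripts 15. Median folds were 4.67 at TSS, 4.62 in introns, 4.62 at transcript ends and 4.47 in exons. Coverage differed more than fold: the median was 45 fragments at TSS peaks and 29 in introns. lincRNA peaks were at a TSS in 71.0% of cases, and 61 of the 63 small RNA peaks were. For small RNAs this section held peaks up to 997 bp upstream of the annotated 5′ end (Gm19658), so it takes in peaks that do not cover the RNA itself.

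Of the 491 peaks, 185 (37.7%, 33.5 to 42.0) had the start of another, protein-coding, gene within 1000 bp of their edges. A coding start lay that near in 69.5% of the whole list, where peaks of coding genes count their own start, and in 2.42% of intergenic peaks. Intergenic peaks are those placed at no gene, so their low share follows from the label. Another 34 of the 491 had only the end of a coding gene whose strand the sources used here do not give, and 272 had neither. In 156 of the 185 (84.3%, 78.4 to 88.9) the noncoding and coding transcripts lay head-to-head, on opposite strands with their starts pointing apart or overlapping at the 5′ ends. This share has no like value over the list, because peaks of coding genes count their own start. Same-strand neighbours numbered 21, and in 8 peaks the noncoding transcript came in on the other strand from downstream. The noncoding start of a head-to-head pair lay a median of 162.5 bp upstream of the coding start (106 to 209). It lay upstream in 115 pairs and downstream of the coding start, so that the transcripts overlap at their 5′ ends, in 41.

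**Figure D3:**
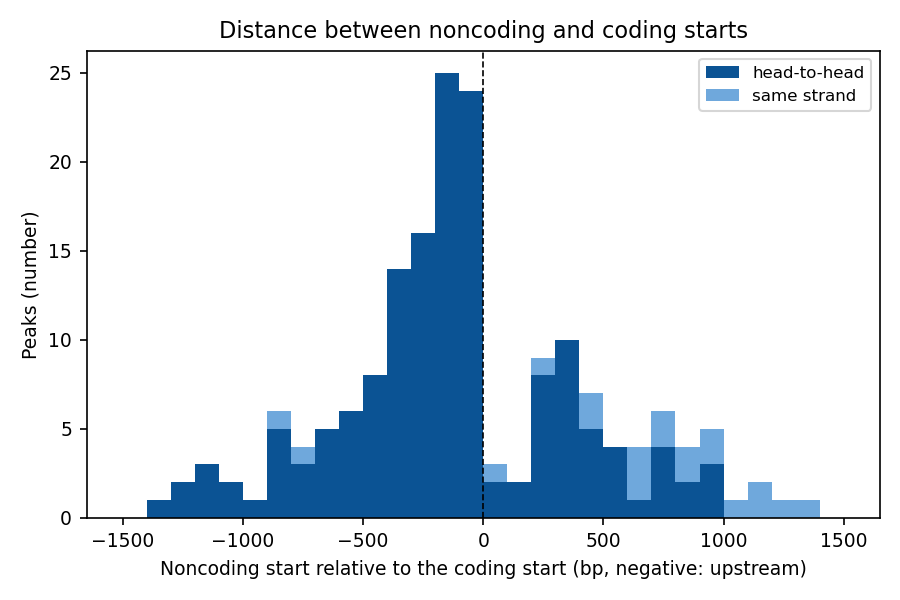
Bars count peaks by the position of the noncoding start relative to the coding start, in bins of 100 bp (x, bp, negative values upstream), for 156 head-to-head pairs and 20 of the 21 same-strand pairs; 1 same-strand pair lies outside the plot. Of the head-to-head pairs, 65 have the noncoding start within 300 bp upstream of the coding start, where the bars are highest.

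Summit positions at the head-to-head pairs were counted against both starts. The summit was nearer to the coding start in 121 of 156 pairs and nearer to the noncoding start in 35. The peak covered both starts in 37 pairs, the coding start alone in 44, the noncoding start alone in 19 and neither in 56. The summit stood between the starts in 57. Distances depend on the start chosen. The noncoding start is that of the transcript in the file, while the coding start is the RefSeq start nearest to the summit. That choice favours the coding start in the counts of 121 and 35, so they do not show which start the summit follows.

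The 185 peaks had 183 different nearest coding genes. Of these, 153 (83.6%) had no listed peak under their own name, as did 75.0% of all 18302 coding genes with a usable start. The 18302 include 810 genes whose start was usable only through a listed peak of their own, which lowers that share. Over all 21900 coding genes it was 79.0%. A peak assigned to a noncoding gene does not count for its coding neighbour, and the difference was not tested. Counting only starts that lay inside a peak, 93 noncoding peaks covered the starts of 95 coding genes, 85 of which had no assigned peak. A search of the list by coding gene name therefore misses them. Measured from summit to summit, 13 noncoding peaks had a listed peak of a coding gene within 1 kb, and 45 had one within 5 kb. The same counts over the whole list were not computed.

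Peaks with a coding start nearby had a median fold of 4.61 (4.37 to 4.92) and those without one 4.65 (4.48 to 4.88). Median coverage was 49 and 38.5 fragments in these sets, and the median background 2 and 1.18. Kept at the site were 47 of the 185 (25.4%, 19.7 to 32.1) and 48 of the 272 (17.6%, 13.6 to 22.6). These intervals overlap, which does not show that the shares are equal, and the difference was not tested. A peak needs 39 fragments to pass there, beside the medians of 49 and 38.5, so coverage bears on these shares. The share with a coding start varied by biotype: 28.4% of lincRNA peaks, 43.5% of antisense, 48.2% of processed_transcript, 42.6% of TEC and 25.7% of pseudogene and T cell receptor peaks. The labels lincRNA and antisense are themselves given by position relative to genes, so these shares depend in part on the labels. The share was 5 of 7 for bidirectional_promoter_lncRNA, whose name asserts such a neighbour. For the other 2 of the 7, the neighbour had no strand in the sources used here.

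**Figure D4:**
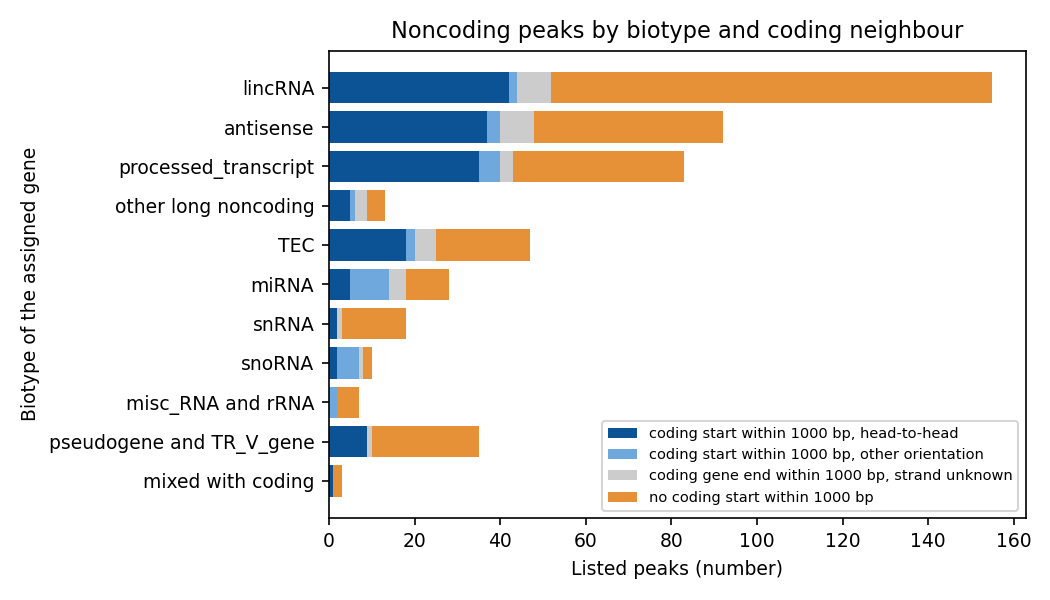
Bars give the number of listed peaks (x) for each biotype class of the assigned gene (y), split by coding neighbour within 1000 bp: head-to-head (dark blue), another orientation (light blue), a coding gene end of unknown strand (grey) or none (orange). lincRNA is the largest class at 155 and has a coding start beside 44 of its peaks; snRNA peaks have 2 of 18.

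The pairs that follow include those of smallest q and others picked after their values were seen, because the coding partner is a well-known gene. Gm11335, a noncoding transcript starting 100 bp upstream of the histone H4 gene H4c8, had a peak at chr13:23530471-23531796. It held 89 fragments where the background was 1.18, with a fold of 12 and rank 24 of the list by q. Gm10069 had the highest fold of all noncoding peaks, 12.5, with 51 fragments over 0.236. Its peak at chr6:128437905-128439113 covered the start of Fkbp4, a co-chaperone gene of the glucocorticoid receptor complex. Gm44915 lay 258 bp upstream of Mex3b, which encodes an RNA-binding protein, at chr7:82865664-82867839. It held 114 fragments against 3 at the site in the control, a depth-scaled ratio of 10.7 (exact 95% interval 3.58 to 52.9), with a fold of 8.31.

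Other strong peaks also lay at head-to-head pairs, and in the first 2 the transcripts overlap at their 5′ ends. Gm45095 starts 539 bp inside Cebpg, a C/EBP family transcription factor gene, on the other strand, and the peak there had 46 fragments over 0.236, a fold of 11.3. RefSeq lists Gm45095 as protein coding, as it does 9 of the 293 assigned genes that it matched by name and position. Gm42884 starts 377 bp inside Clip2, a microtubule linker gene, with 42 fragments over the genome rate of 0.132 and a fold of 11.4. Gm10138, 415 bp upstream of Ivns1abp, a kelch family gene, had 89 fragments over 2.36 and a fold of 7.79. Each of these passed the exact test at the site.

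RNA-binding and chromatin genes were among the coding partners. These examples were picked from 183 nearest coding genes, and partners were not counted by function. Srsf1, a splicing factor gene, starts 12 bp from the lincRNA 2010015M23Rik, whose peak had 79 fragments against 4 and a fold of 4.67. At Ncl, the nucleolin gene, the peak of C130036L24Rik had 114 fragments over 7.32 and a fold of 4.00. At Pcbp1, which encodes a poly(C)-binding protein, the peak of 1600020E01Rik had 69 against 2 and a fold of 6.84. Ep300, the gene of the p300 acetyltransferase, had its start in the peak of 1110025M09Rik, with 80 over 4.96 and a fold of 3.96. These peaks were kept at the site. The peak of Gm43766 at Chd8, a chromatin remodeller gene, had 63 against 3, a fold of 4.70 and a ratio of 5.94 (1.94 to 29.6). The peak of Sp3os at Sp3, a GC-box binding factor gene, had 81 against 9, a fold of 2.39 and a ratio of 2.54 (1.28 to 5.76). Both missed the limit.

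Metabolic and stress genes were there too, again without a count by function. Hk1os at Hk1, the hexokinase gene of glycolysis, had 84 fragments over 4.48 and a fold of 4.51. Gm26608 at Insig1, a brake on sterol synthesis, had 78 over 4.25 and a fold of 4.39. Gm12981, on the same strand as the sestrin gene Sesn2, had 61 against 1 and a fold of 9.12. Beside the ribosomal protein genes Rpsa, Rps3 and Rpl13 lay peaks under the snoRNA names Gm24044, Snord15a and Snord68, with 36, 41 and 25 fragments and folds of 5.59, 4.20 and 3.70, all missing the test at the site. S1pr1, a receptor that guides T cell exit from lymphoid tissue, had a peak of its own. Its start also lay inside the peak of Gm9889, a lincRNA that starts 95 bp upstream, with 25 over 0.425 and a fold of 5.66.

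Of 66 Tfh, cytokine and T cell transcription factor genes, only Il21 was the nearest coding start of known strand within 1000 bp of a noncoding peak. Of all 18302 coding genes with a usable start, 183 were such a nearest start, a share near 1 of 66. Junos, an antisense gene named for Jun, also had a peak, but Jun was not counted as such a start. Genes of unknown strand, and those with another coding start nearer to the summit, were not counted. Gm43822 starts 231 bp upstream of Il21 and is head-to-head with it. The peak at chr3:37232635-37232886 covers the whole Il21 stretch printed above and reaches the Il21 start at 37232636 with its edge. Its summit, at 37232875, stood at the other end of the peak, beside the Gm43822 start at 37232867. Coverage was 35 fragments after anti-IFNAR1 and 2 in the control. Its fold of 3.63 was below the noncoding median, and its rank by q was 6173 of 6395. At the site the depth-scaled ratio was 4.95 (exact 95% interval 1.27 to 42.5), with a one-sided exact p of 0.00646. With under 39 fragments that limit was out of its reach.

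Promoter sequence was described in the 300 bases from 250 before to 50 after a RefSeq start, for starts whose window the peak overlapped. Of 467 assigned genes, 188 were in the promoter table and 100 had such a window. CpG content was given as the ratio of observed to expected CpG dinucleotides, which is low in most of the mouse genome and high in CpG islands. Its median was 0.843 (0.741 to 0.879) for 53 lncRNA genes with a coding start within 1000 bp and 0.604 (0.512 to 0.774) for 35 without. It was 0.851 for 116 coding neighbours, 0.818 for 2610 coding genes with their own listed peak, 0.567 for all coding promoters and 0.245 for all lncRNA promoters in the table. The head-to-head windows share bases with those of their coding partners, so the values of those sets are not independent.

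**Figure D5:**
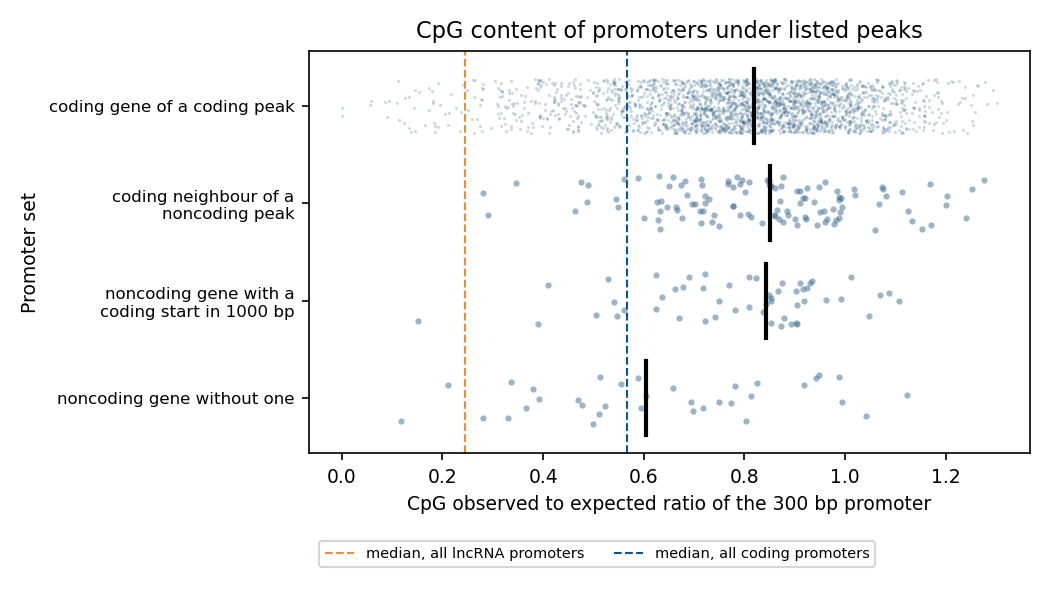
Each point is 1 promoter of 300 bp under a listed peak, placed by its observed to expected CpG ratio (x, a ratio without unit) in 4 promoter sets (y); black bars are medians, and dashed lines are the medians of all lncRNA promoters (0.245) and all coding promoters (0.567) in the table. Noncoding promoters with a coding start within 1000 bp are centred at 0.843 and those without at 0.604, both right of the line of all lncRNA promoters.

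The SP and KLF box, GGGCGG on either strand, was in 79.2% (66.5 to 88.0) of noncoding promoters with a coding start and 45.7% (30.5 to 61.8) of those without. It was in 77.6% of the coding neighbours, in 74.3% of coding promoters with their own peak and in 35.7% of all promoters in the table. The CCAAT box, at 32.1% and 25.7% of the 2 noncoding sets, was in 37.4% of all promoters and 36.0% of all lncRNA promoters. A TATA box (TATAAA) was in 3.77% and 11.4%, against 13.6% of all promoters and 15.5% of all lncRNA promoters. The ISRE core, bound by interferon-activated factors, was in 0 of 53 and 1 of 35, against 3.44% of all promoters and 3.61% of all lncRNA promoters, too few to compare. Other letters searched were CCGGAAGT (ETS), TGACGTCA (CRE), TGANTCA (AP-1), TTCNNNGAA (STAT), TTTGGCGC (E2F), and the NF-kB, NRF1 and YY1 sites, all on both strands. The GC share of a window bears on these matches, with medians of 65.3% and 57.7% in the noncoding sets, 52.7% over the table and 48.3% over its lncRNA promoters.

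The miRNA genes had 28 peaks on 27 genes, all at a TSS. By name and position RefSeq lists 20 of these genes as miRNA genes and n-TStga1 as a tRNA gene. The table of miRNA sequences held 17 of the 20, and the hairpin lay inside the peak for 7 of them and outside it for 10. Mir142, a miRNA gene of blood cells, is shown because its hairpin was in its own peak at chr11:87756410-87757112 and its host gene Mir142hg had another peak at chr11:87754849-87755403. The miR-17 cluster is shown because its host gene, Mir17hg, had a peak, and these miRNAs are known to promote Tfh differentiation. Capitals mark the seed, bases 2 to 8, which sets target choice.
mmu-miR-142a-5p: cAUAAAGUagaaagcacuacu
mmu-miR-142a-3p: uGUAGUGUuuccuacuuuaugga
mmu-miR-17-5p: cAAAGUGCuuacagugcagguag
mmu-miR-20a-5p: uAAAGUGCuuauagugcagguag
mmu-miR-18a-5p: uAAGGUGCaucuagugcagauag
mmu-miR-19a-3p: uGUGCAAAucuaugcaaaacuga
mmu-miR-19b-3p: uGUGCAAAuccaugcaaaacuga
mmu-miR-92a-3p: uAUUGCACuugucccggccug
miR-17-5p and miR-20a-5p share the seed AAAGUGC, and miR-19a-3p and miR-19b-3p share GUGCAAA, so the cluster holds several copies of the same targeting letters.

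At the Mir142hg promoter 75 fragments stood over 3.54 control fragments, a fold of 4.89, and the peak passed the exact test at the site. Over the Mir142 hairpin there were 32 over 1.25, a fold of 4.46, kept in the test with the caller's window and not at the site. The Mir17hg peak at chr14:115042157-115042613 lay 1058 bp before the nearest hairpin of the cluster, with 21 fragments over 0.236 and a fold of 5.61. Mir22hg, host of miR-22, had peaks of 92 over 6.84 (fold 3.44) and 48 over 3.54 (fold 3.21).

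Several miRNA peaks lay near the start of a coding gene. Mir6974 had the smallest q among them, with 66 fragments over 1.42 and a fold of 8.14 at chr17:35204752-35205209. Its hairpin lay outside the peak, and the nearest coding start was that of Lta, the lymphotoxin alpha gene, on the same strand. Mir7045 had 44 over 2.36 and a fold of 4.00, with the nearest coding start that of Chd4, a remodeller gene. Both peaks lay inside the coding gene, downstream of its start, and did not cover it. Gm44492 had 2 peaks in a histone gene cluster, beside H2ac20 and H2ac21, with folds of 7.20 and 3.57. Of the 28 miRNA peaks, 14 had a coding start within 1000 bp, 5 of them head-to-head.

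Genes of structural small RNAs differed in their surroundings. Of 18 snRNA peaks, 2 had a coding start within 1000 bp, and of 10 snoRNA peaks, 7 did. The strongest snRNA peaks were those of Gm23296 (72 fragments against 2, fold 7.12), Gm22013 (46 over 0.708, fold 8.20) and Gm22068 (50 against 1, fold 7.57), all kept at the site. Rn7sk, the 7SK RNA that holds the elongation factor P-TEFb inactive, had 69 against 6 and a fold of 2.93. Terc, the RNA template of telomerase, had 21 over 0.132 and a fold of 6.13. Rny1, a Y RNA, had 18 over 0.132 and a fold of 5.38. Rn7s2, a 7SL RNA of the signal recognition particle, had 63 over 4.72 and a fold of 3.29. Among snoRNAs, Rnu3a, a gene of the U3 RNA of ribosomal RNA processing, had 75 against 3, a fold of 5.55 and a ratio of 7.07 (2.33 to 35.0), and Snora26 53 over 1.18 and a fold of 7.33. The genes of spliceosomal snRNAs and of the 7SK, 7SL, Y and U3 RNAs have near-identical copies elsewhere, and the sources used here do not say how reads with several matches were placed, so their values for single copies are uncertain.

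How such reads were placed also bears on AY036118, a transcript on chromosome 17 with the widest noncoding peak, 5580 bp at chr17:39843132-39848712. It had 512 fragments, the most of any noncoding peak, over a background of 43.9, so that its q was the fifth smallest of the list while its fold was 3.25. Among pseudogenes, Pisd-ps2 had 152 fragments against 11 and a fold of 3.66, RP24-366L10.4 89 against 3 and 6.54, and the major histocompatibility pseudogene H2-T-ps 61 against 2 and 6.08.

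A list of 59 genes was looked for, of which RefSeq gives 3 as protein coding. Of the other 56, 18 had a noncoding peak, 2 of them under an older name. The list was chosen with earlier results of these data known, so this count is no rate. The share over all noncoding genes was not computed. Malat1, an abundant nuclear RNA, had 79 fragments against 8, a fold of 2.59 and a ratio of 2.79 (1.35 to 6.69). Neat1, the scaffold of paraspeckles, had 56 over 4.01 and a fold of 3.36. Both genes lie side by side on chromosome 19, and both folds were below the noncoding median. Lncpint, a p53-induced RNA, had 3 peaks, at its start (57 over 1.42, fold 7.08) and in 2 introns (folds 5.68 and 2.93). Snhg8, a snoRNA host gene, had 62 over 3.07 and a fold of 4.55. Gas5 had 54 over 2.83 and a fold of 4.24 and starts 323 bp upstream of Zbtb37, a zinc finger gene. Ptprv, named for a receptor phosphatase, starts 156 bp upstream of Ptpn7, a phosphatase gene of blood cells, with 69 over 4.48 and a fold of 3.74. Pvt1, the neighbour of Myc, had 2 intron peaks with folds of 4.90 and 3.86, and Ftx, from the X-inactivation centre, 1 with a fold of 4.90. Apart from AY036118, the Lncpint start, Mir142hg and 1 of the Mir22hg peaks, none of the peaks on this list passed the exact test at the site. Morrbid, a noncoding neighbour and regulator of the apoptosis gene Bcl2l11, was listed as Gm14005, with 34 fragments over 1.65 and a fold of 4.00. Oip5os1, known for promoting the decay of miR-7, was listed as 1700020I14Rik, with 44 against 2, a fold of 4.48 and a ratio of 6.22 (1.62 to 53.0). Xist, Mir155hg and Dleu2 had no listed peak under these names or a RefSeq synonym.

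Strong peaks also occurred without another coding start within 1000 bp. Gm12796, a lincRNA, had its peak at the transcript's end (chr4:101292113-101293123), with 44 fragments over the genome rate of 0.132 and a fold of 11.9. Gm12676 had 40 over 0.132 and a fold of 10.9, and Gm37238, a TEC locus, 117 over 4.25 and 6.49. The peak at the start of Trerf1 itself, a gene that RefSeq lists as coding and whose transcript here was labelled processed_transcript, had 81 over 1.65 and a fold of 9.01. Bach2it1, a transcript within Bach2, a repressor of effector T cell genes, had 56 over 1.89 and a fold of 5.83. All of these passed the exact test at the site.

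At the edge of the list, 3 noncoding peaks shared the q nearest to 0.05, 0.0496, those of Arl4aos, Mir5627 and 4930581F22Rik. Each had 54 fragments against 5, a fold of 2.71 and a ratio of 3.05 (1.23 to 9.78), and each lay head-to-head with a coding gene. Noncoding peaks just outside the threshold were not analysed here.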

How the data were processed

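ATAC-seq libraries of 4 anti-IFNAR1 and 3 control IgG samples, grouped by their treatment labels, were summarised by the authors in 1 peak list. Per the submitters' processing notes, the tools were bedtools, DESeq2, DiffBind 2.0.7, MACS2 2.1.0.20150420 and BWA 0.7.9a on mm10, with no role or order given. The sources used here do not give how cut sites were shifted, duplicates treated or reads with several matches placed, or which libraries formed each side, so pooling was assumed. The direction was read from the peak names, which set IFN against Ig. The signal, per the file headers, is the scaled pileup at the summit, and the authors deposited a fold enrichment, the ratio to the local background. The authors also deposited 2 columns with damaged headers, taken as −log10 p and −log10 q. Recomputing the first as a Poisson tail gave differences of at most 0.000111.

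Every pileup was a whole multiple of 0.283 (tolerance 0.005), which turned it back into fragments. The anti-IFNAR1 side was 3.54 times as deep, and depth per sample is unknown. The control background is (pileup + 1) / fold − 1, with windows read at a fragment length of 236 bp. Where it came from a window, the highest site count that it allows was used in the test at the site. Peaks at the genome rate had a Poisson test with no control noise. Listed names were matched by symbol or RefSeq synonym and position. Tests were tested on simulated data (Python 3.11.15, NumPy 2.4.6, pandas 2.3.3, SciPy 1.17.1). Intervals of shares are Wilson 95% intervals.

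Coding starts came from RefSeq promoter windows (GRCm38.p6) for 17492 of 21900 coding genes. The strand of 810 more came from the deposited list, and it was unknown for 3598. The assigned gene never counted as its own neighbour. Sequence around summits, as planned, needs a genome, so RefSeq windows were used in its place. Chromosome 18, with 4 of the peaks, has no window.

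Members and lists were chosen with earlier results of these data known. The naming rule takes small RNA peaks, listed noncoding genes, the 12 smallest q values, the 3 smallest per long noncoding biotype, neighbours of Tfh and cytokine genes, the 5 shared promoters of smallest q, the widest peak and the peaks at the threshold. Other names were picked after their values were seen.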

Additional observations from a re-analysis of the deposited data

How the results depend on the processing

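No alternative reversed a result. Of 27 alternatives, 15 left the value within its interval or within 1.5 times of the count and 12 did not. The 491 peaks fell to 52 with a pileup of at least 20 and to 100 when the exact test used the site alone. The share with a coding start, 37.7%, was 18.9% when the start had to lie inside the peak, 29.9% within 200 bp, 45.4% within 5000 bp, 46.2% with a pileup of at least 20 and 44.6% when coding genes of unknown strand counted. The share at a TSS, 80.4%, was 100% with a pileup of at least 20 and 87.2% within 1 kb of the assigned start. The median fold of 4.63 was 5.01 at a q of 0.01 and 5.01 among peaks that the exact test kept with the window of the caller. It was 7.40 for the ratio without the pseudocount, where the whole list had 7.91. The changes with distance, with genes of unknown strand and with the scale follow from how those alternatives are built, and the cause of the others was not tested. The head-to-head share stayed between 79.4% and 88.4%. Counting genes of unknown strand or the assigned gene itself, and taking shares and folds over peaks kept by that exact test, were chosen after seeing the data.

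No paired analysis was possible because no column carries a sample or a replicate number. For the same reason leaving out replicates was not run. Depth limits single sites: a peak with fewer than 39 fragments cannot pass the exact test at the site.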
